A study of Macaca mulatta with 64 samples.

Results

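Start positions of mRNA genes in the parietal cortex (PC) of adult and aged rhesus macaques were compared with those of young animals. The comparison holds the 8 PC libraries of a series of 64 CAGE-seq libraries, with the 4 libraries of 10- and 20-yr-old animals as the older class and the 4 libraries of 1- and 4-yr-old animals as the younger class. Genes entered the tests when their summed signal reached at least 1 TPM (tags per 1000000 tags of the library) in 4 or more of the 8 libraries, which held for 2149 of the 13269 genes in the table. All animals were healthy, socially housed Macaca mulatta, and no group carried an allele or a drug treatment. The animals were killed with pentobarbital and bled, so both classes share this. Each age was represented by 1 female and 1 male library, and for RNA-seq on these tissues the study describes a library as made from 2 animals of matched age and sex. A class therefore joins 2 ages and 2 sexes, and the spread within it holds both. The tissue was taken from the parietal lobe at the middle of the sylvian fissure, and all 8 brain regions of the series came from the same animals.

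CAGE reads the 5′ end of capped RNA, so a tag marks the nucleotide where transcription of an mRNA began, and the number of tags at a position gives how much of that RNA was caught. The protocol depletes uncapped poly(A) RNA with an exonuclease that needs a 5′ phosphate before the 5′ ends are tagged. How complete that depletion was in these libraries was not tested. Nearby tags were joined by the authors into transcript clusters (TCs), each given as 1 position. The parietal cortex is association neocortex that integrates touch, vision and the position of the body, and it is built of layered glutamatergic projection neurons, local GABAergic neurons, astrocytes, oligodendrocytes, microglia and vessels. Myelination and the pruning of synapses continue in the primate neocortex from infancy into adulthood, and ageing neocortex is known for altered synaptic, mitochondrial and glial expression.

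The libraries of 20-yr-old animals stood apart in how many genes and positions they listed. In the younger class, 2858 genes were listed in the 1-yr-old female, 4136 in the 1-yr-old male, 3161 in the 4-yr-old female and 2365 in the 4-yr-old male. In the older class, 2562 genes were listed in the 10-yr-old female, 2599 in the 10-yr-old male, 859 in the 20-yr-old female and 1355 in the 20-yr-old male. Both 10-yr-old libraries thus lay within the range of the younger class, and both 20-yr-old libraries lay below every other library. A gene is called listed when it had at least 1 position, and no position below 1 TPM was listed. The mean was 3130 ± 747 genes in the younger and 1844 ± 875 in the older class (SD, n = 4 libraries each), a difference that the exact permutation test did not separate from the spread (two-sided p = 0.0857, adjusted p = 0.229 over 8 library measures, smallest possible p 0.0286). Positions behaved alike, with 3722 to 7803 in the younger libraries, 4187 and 4113 in the 10-yr-old and 1105 and 1903 in the 20-yr-old libraries (exact permutation p = 0.0857, adjusted p = 0.229).

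The number of tags was also read from the values, and its part in the listing was not tested. The steps between low values gave 3140704 tags in the 20-yr-old male, 3617945 in the 20-yr-old female and 3324468 to 4299226 in the other 6 libraries, and the lowest listed value stood for 4 to 5 tags. The 20-yr-old male thus had the fewest tags, and the 20-yr-old female lay within the range of the others. The listed positions of the 20-yr-old libraries were stronger. Their median was 214 TPM in the female and 77.7 TPM in the male, against 20.2 to 40.2 TPM in the other 6 libraries. Positions under 10 TPM made up 17.4% and 23.9% of those listed at 20 yr and 28.6% to 34.7% in the other libraries, whereas positions of 100 TPM or more numbered 654 and 880 at 20 yr and 753 to 1190 elsewhere. Positions from 10 to under 100 TPM numbered 259 and 569 at 20 yr and 1529 to 4346 elsewhere, and those under 10 TPM 192 and 454 against 1065 to 2704. The gap in number between the 20-yr-old and the other libraries thus lay mostly below 100 TPM. How much of the listing at 20 yr reflects the tissue, the RNA or the library cannot be told apart with 1 library per age and sex.

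**Figure D1:**
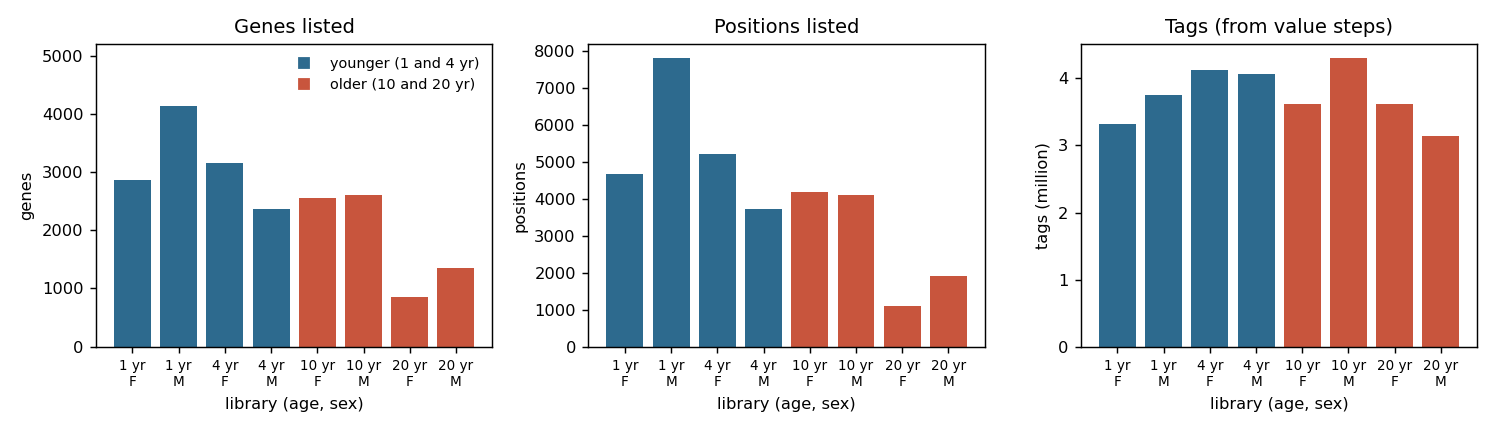
Genes listed, positions listed and tags (from the steps between low values) in each of the 8 PC libraries, with age and sex on the horizontal axis and bars coloured by age class. The 20-yr-old female (859 genes, 1105 positions) and male (1355 genes, 1903 positions) had the fewest genes and positions, while tags lay between 3140704 and 4299226 in all 8.

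Of the other measures of the libraries, the listed TPM differed most by p, with 515469 ± 11658 in the younger and 564604 ± 28284 in the older class (SD, n = 4 each, exact permutation p = 0.0571, adjusted p = 0.229). The 20 highest genes held 28.4% ± 1.37 and 30.9% ± 3.31 of it (exact permutation p = 0.286, adjusted p = 0.457). TPM at most 500 nt from the annotated start of a gene made up 54.3% ± 2.15 of the listed TPM in the younger and 56.1% ± 2.96 in the older class (SD, n = 4 each, exact permutation p = 0.400). The share in the last 10% of the gene was 12.6% ± 0.348 and 12.8% ± 1.26 (exact permutation p = 0.800), and genes of the mitochondrial genome held 6.30% ± 1.86 and 6.44% ± 2.25 (exact permutation p = 0.943). More than 1 position was listed for 34.8% ± 4.35 of the listed genes in the younger and 27.0% ± 6.24 in the older class (exact permutation p = 0.143). The adjusted p of the last 4 measures ranged from 0.286 to 0.943. Direction was lost for the share near the start with 10-yr-old animals alone as the older class, and for the gene end and the mitochondrial share when single libraries were left out.

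Markers of the tissue were checked in the same libraries. Of the glutamatergic markers in the table, 10 of 12 were listed in at least 1 PC library, as were 12 of 13 GABAergic, 11 of 13 astrocyte and 12 of 14 oligodendrocyte markers. Defining genes were nonetheless among those listed at 0 in all 8 libraries, including TBR1, PVALB and AQP4, so absence from the list does not mark absence of a cell type. Lists for other brain regions and for blood were mixed. Of the cerebellar list, 5 of 12 members were listed (CA8, CALB1, NEUROD1, PAX6 and ZIC1) and 7 were at 0. NEUROD1 is also on the glutamatergic list, so a listed member does not by itself mark cells of another region. The cerebellar granule cell genes GABRA6, CBLN1 and CBLN3 and the dentate gene PROX1 were at 0 in every PC library, the summed cerebellar list reached 0 to 266 TPM in the younger and 0 to 65.6 TPM in the older class, and no blood marker was listed (ALAS2 and HBA, the markers of this list in the table, at 0). Of the dentate and CA1 list, 6 of 10 members were listed, with a sum of 0 to 104 TPM in the younger and 0 to 825 TPM in the older class, the highest being LHX2 at 825 TPM in the 20-yr-old female. The profiles were otherwise noisy between libraries: over the 28 pairs, Pearson's r of log2(TPM + 1) ran from 0.32 to 0.43 within a class and from 0.31 to 0.37 between classes, and no pair held identical values.

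At the level of single genes, 1 of 2149 genes passed the test between the age classes, which is 0.0465% of the genes tested. This was SEMA3B, which encodes a secreted class 3 semaphorin, a family of axon guidance cues. SEMA3B (ENSMMUG00000020117, minus strand of chromosome 2, 86141368 to 86148948, MMUL 1.0) was listed at 0 in all 4 younger libraries. It had 294 TPM in the 10-yr-old female, 237 TPM in the 10-yr-old male, 699.6 TPM in the 20-yr-old female and 457 TPM in the 20-yr-old male. All 4 older libraries thus listed it and no younger one did, and it passed the filter of 4 libraries through the older class alone, which bears on its p. The fitted difference was 8.60 ± 1.19 (SE) on the log2(TPM + 1) scale (adjusted p = 0.0354 by limma), a size that depends on the pseudocount because the younger class was at 0. Its tags came from the far end of the gene. They fell at 86141761 in both 10-yr-old libraries and the 20-yr-old male, 7187 nt from the annotated start and 94.8% along the gene, and at 86141736 in the 20-yr-old female.

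The call for SEMA3B was not robust to every choice. Over the 15 alternative settings in which it could be fitted its difference kept its sign, and it was called in 6 of them, with adjusted p from 0.00832 to 0.673. It lost the call with any 1 younger library left out, with 4-yr-old animals alone as the younger class, with a sex term, with the number of positions as a term, and with age as 4 levels or as a slope. With an older library left out it fell below the filter. Elsewhere in the brain it was listed in 4 of 28 younger and 9 of 28 older libraries, including all 4 older CA1 libraries at up to 116 TPM and 1 older PCC library at 2308 TPM.

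Most genes had lower values in the older class without passing the test. Of the 2149 genes, 611 (28.4%) had a higher and 1538 a lower mean log2(TPM + 1) in the older class, and the median difference was −1.28. An unadjusted p under 0.05 was reached by 246 genes (11.4%), 10 of them higher and 236 lower. The tilt stayed when values were rescaled to the listed total, with 570 genes higher, 1579 lower and a median of −1.36. It was absent with quantile normalization and with the number of positions as a term. Quantile normalization gives all libraries the same distribution, so a median near 0 there is no test of the tilt. The cause of the tilt was not tested. With quantile normalization 1064 genes were higher and 1085 lower and the median was −0.03, and with the log2 number of positions as a term the median was 0.03. With 10-yr-old animals alone as the older class, a choice made after the data were seen, 890 of 1947 genes were higher, the median was −0.20 and 154 genes (7.91%) had an unadjusted p under 0.05, 34 higher and 120 lower, none called by limma. The number of calls also moved with the pseudocount, since 32 genes (1.49%), 31 of them lower, were called with 0.25 TPM in place of 1 TPM, and 27 of these 32 were genes that no older library listed.

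Some genes were listed in all younger libraries and in none of the older ones. There were 54 such genes, 2.51% of those tested, and 33 had a symbol. The converse, listed in all 4 older and no younger library, held for SEMA3B alone (0.0465%). Genes of either kind passed the filter of 4 libraries only through the class that listed them, so their differences and p are a description of this choice and not separate support for it. These 54 genes were of middling strength in young cortex, with a median of 61.8 TPM over the younger class, against 133 TPM for the 1061 genes listed in all 4 younger libraries. Of these 1061, 746 were listed in both 10-yr-old and 349 in both 20-yr-old libraries, 72 were in neither 10-yr-old library and 326 in neither 20-yr-old library. Absence at 10 yr was thus the rarer event, and 54 of the 72 genes absent at 10 yr were absent at 20 yr too.

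**Figure D2:**
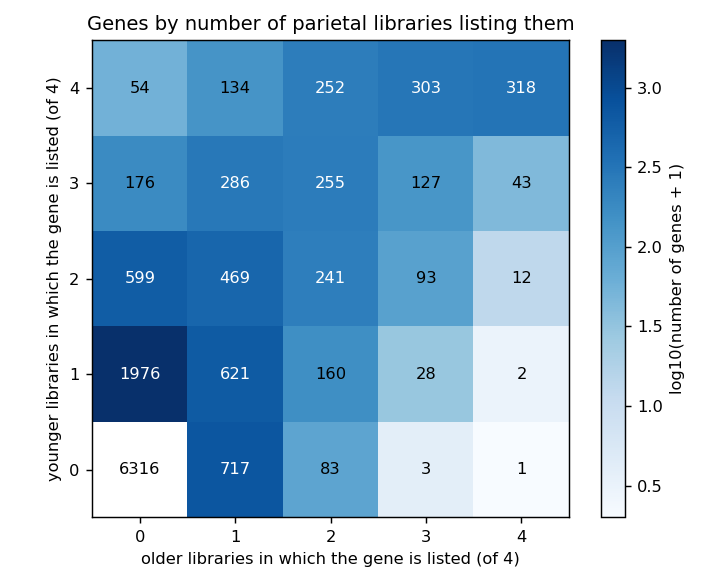
Number of genes by how many of the 4 younger (vertical axis) and 4 older (horizontal axis) PC libraries listed them, with shading on a log10 scale and the 6316 genes listed in none left unshaded. The corner of genes in all younger and no older library holds 54, the opposite corner 1, and 318 genes were listed in all 8.

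DBP, TMEM230 and ATP9A had the smallest p of the younger-only genes with a symbol. DBP encodes a PAR bZIP transcription factor that is an output of the circadian clock. Of the 3 tested genes of the circadian clock list, 2 were higher in the older class and DBP alone was lower. It had 89.9 TPM in the 1-yr-old female, 157 TPM in the 1-yr-old male, 66.4 TPM in the 4-yr-old female and 88.9 TPM in the 4-yr-old male, and was listed at 0 in all 4 older libraries (log2 difference −6.59 ± 1.17 SE, adjusted p = 0.0601 by limma). Its positions differed between the 4 libraries that listed it, from 12 nt upstream of the annotated start in the 1-yr-old female to 89.6% along the gene in the 4-yr-old male. TMEM230, which encodes a membrane protein of transport vesicles, had 60.5, 75.4, 223 and 102 TPM in the younger libraries, given here and below in the order 1-yr-old female, 1-yr-old male, 4-yr-old female and 4-yr-old male, and was at 0 in the older ones (−6.67, adjusted p = 0.0601 by limma). ATP9A, which encodes a phospholipid flippase, had 316, 50.6, 194 and 68.3 TPM against 0 in all older libraries (−6.93, adjusted p = 0.0601 by limma), all within the last part of the gene at 99.7% to 99.8% of its length.

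Among genes with a symbol, the others with the smallest p and lower values in the older class were of mixed function. CALCOCO1, a coactivator and receptor for turnover of the endoplasmic reticulum, had 143, 40.2, 131 and 44.7 TPM in the younger libraries and MGAT5B, a glycosyltransferase of the brain, had 50.8, 58.1, 127 and 55.8 TPM, with 0 in all older ones. RPL17, a protein of the large ribosomal subunit, had 110.4, 25.3, 91.1 and 58.7 TPM against 0. For 3 more genes a single older library held a trace. NICN1, a subunit of the tubulin polyglutamylase complex, had 415, 67.7, 61.5 and 296 TPM in the younger class and 2.23 TPM in the 20-yr-old male alone. CCDC149 had 43.0, 79.4, 119.7 and 170.0 TPM and then 1.93 TPM in the 10-yr-old female alone. PSMA7, a subunit of the proteasome core, had 328, 34.4, 391 and 56.2 TPM and then 2.33 TPM in the 10-yr-old male alone. Log2 differences of these 6 genes lay between −6.82 and −5.99 and their adjusted p between 0.0601 and 0.0737 (limma), so none was called.

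TAC1 and NR4A1 were also younger-only, with lower levels. TAC1, the precursor of substance P, had 39.4, 42.6, 30.0 and 27.0 TPM in the younger class (log2 difference −5.14 ± 1.16 SE, adjusted p = 0.0770 by limma), all within 61 nt of the annotated start. NR4A1, an orphan nuclear receptor and immediate-early gene of active neurons, had 41.2, 11.98, 34.2 and 120 TPM (−5.29, adjusted p = 0.0926 by limma), with all tags between 73.5% and 97.3% along the gene. CTSA, a lysosomal carboxypeptidase, had 91.5, 148, 1.94 and 5.90 TPM (−4.52, adjusted p = 0.289 by limma). None of these 3 genes was listed in an older PC library.

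The younger-only genes were not absent from older brain in general. In OC the 54 genes filled 44.9% of the possible listings in the younger and 50.9% in the older libraries, and in CA1 80.6% and 67.6%. In PFC they filled 51.4% and 35.2% and in CB 41.2% and 19.9%. The listings of all tested genes had the same direction in PFC and OC, with 77.9% and 58.7% in the former and 66.1% and 74.2% in the latter. Genes in all 4 younger and no older library were also counted within each region, with the share of the genes tested there. They numbered 51 in PFC (2.11%), 21 in TC (0.768%), 15 in PCC (1.61%) and 2 in OC (0.0860%). The converse numbered 1 in PFC (0.0414%), 0 in TC, 0 in PCC and 18 in OC (0.774%).

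Among genes with higher values in the older class, PSME1 had the smallest p after SEMA3B. PSME1 encodes the alpha subunit of the PA28 activator of the proteasome. It was listed in the younger class in the 4-yr-old male alone, at 165 TPM, and had 115, 203, 1517 and 351 TPM in the older libraries, given in the order 10-yr-old female, 10-yr-old male, 20-yr-old female and 20-yr-old male. The 4-yr-old male lay above the 10-yr-old female, so the classes overlapped (log2 difference 6.55 ± 1.88 SE, adjusted p = 0.172 by limma). All its tags fell between 28 nt upstream of the annotated start and the start itself.

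NDUFB9 and ATP5IF1, both in the respiratory chain list, were named by their p in this direction and were not called. NDUFB9, an accessory subunit of complex I, had 278, 2.93, 108 and 284 TPM in the younger and 3607, 195, 3321 and 9331 TPM in the older class (4.83 ± 1.82 SE, adjusted p = 0.355 by limma). The 10-yr-old male lay within the younger range and the other 3 older libraries above it. The high values lay at the start of the gene, where the 10-yr-old female, the 20-yr-old female and the 20-yr-old male had their main positions 69, 60 and 29 nt downstream of the annotated start, at 3511, 3313 and 9265 TPM. A position 3620 nt into the gene had 270, 0, 108 and 238 TPM in the younger and 80.6, 24.9, 0 and 65.6 TPM in the older libraries. ATP5IF1, the inhibitor of the mitochondrial ATP synthase, had 494, 177, 576 and 49.1 TPM in the younger and 1045, 633, 4718 and 5535 TPM in the older class, with no overlap (3.18 ± 1.43 SE, adjusted p = 0.427 by limma). In the 20-yr-old libraries its main positions lay from 30 nt upstream to 21 nt downstream of the start.

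PICK1, CCNI and PTRH2 had smaller p than most genes in this direction but uneven values. PICK1, a PDZ protein that binds AMPA receptors, had 4.53 TPM in the 1-yr-old male and 0 in the other younger libraries, against 120.1, 73.5, 651 and 0 TPM in the older ones (5.00, adjusted p = 0.361 by limma). CCNI, an atypical cyclin, had 0, 0, 69.5 and 65.8 TPM against 63.5, 137, 1819 and 376 TPM (5.08, adjusted p = 0.355 by limma). PTRH2, a mitochondrial peptidyl-tRNA hydrolase, had 0, 11.7, 0 and 3.44 TPM against 164, 122, 1429 and 0 TPM (4.74, adjusted p = 0.427 by limma). In each of the 3 genes the 20-yr-old female was highest, and in PICK1 and PTRH2 the 20-yr-old male was at 0. The rule for named genes also took HNRNPAB, CTNNBL1 and OGFR, with unadjusted p from 0.0438 to 0.0524.

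**Figure D3:**
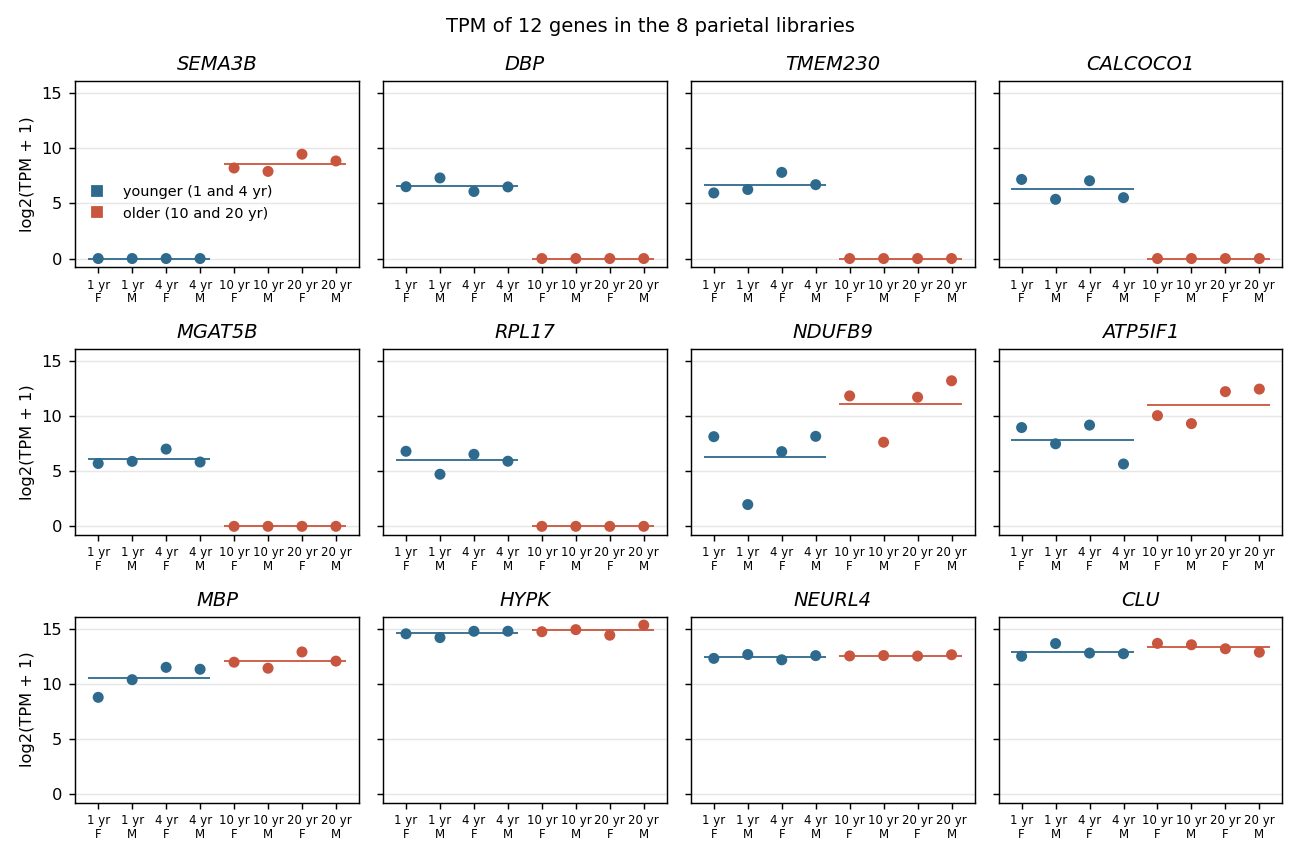
Log2(TPM + 1) of 12 genes in each of the 8 PC libraries, with age and sex on the horizontal axis, 1 point per library and a line at the mean of each age class. SEMA3B sits at 0 in the 4 younger libraries and DBP, TMEM230, CALCOCO1, MGAT5B and RPL17 at 0 in the 4 older ones, NDUFB9 and MBP overlap between classes, and HYPK, NEURL4 and CLU lie at high and similar levels in all 8.

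Genes listed in every library showed no tilt, but this choice leaves out every gene that any older library did not list. A median near 0 among them is therefore no test of the tilt. Of the 318 genes with a position in all 8 PC libraries, 157 (49.4%) had a higher mean in the older class and the median log2 difference was −0.02. Fitted alone, a choice made after the data were seen, they gave no gene past an adjusted p of 0.05 by limma and 25 (7.86%) with an unadjusted p under 0.05, 15 higher and 10 lower. In the fit of all genes tested, 4 of the 318 had an unadjusted p under 0.05. The 318 were also the strong genes, with a median of 360 TPM over the younger class. With 10-yr-old animals alone as the older class, 164 of the 318 were higher and the median was 0.05.

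The most abundant transcripts kept high levels at all ages. HYPK, which encodes a huntingtin-binding partner of the N-terminal acetyltransferase, was the highest, with 23582, 18595, 27647 and 27727 TPM in the younger and 26854, 30608, 21633 and 40778 TPM in the older libraries (log2 difference 0.28 ± 1.17 SE). GPX4, the peroxidase that removes lipid peroxides, had 9424 to 12615 TPM in the younger and 12086 to 24237 TPM in the older class. CLU, the secreted chaperone clusterin of astrocytes, had 5775 to 12791 TPM and 7423 to 12931 TPM, and GAP43, a protein of growth cones and presynaptic terminals, had 5313 to 8326 TPM and 3680 to 7452 TPM. NEURL4, an adaptor of ubiquitin ligases, was the steadiest of these, with 5038, 6424, 4605 and 5992 TPM against 5875, 6027, 5827 and 6336 TPM (0.14 ± 1.16 SE). The classes overlapped in all 5 genes, and the smallest unadjusted p among them was 0.629. These SEs are moderated by limma toward the spread of all genes tested, so they are wider than the values of a steady gene such as NEURL4. In this fit, a difference of a few fold in a single gene was not detectable.

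Neuronal genes were described by lists of markers and functional groups, and no member of any list was called, beside 0.0465% of all genes tested. For the 8 tested glutamatergic markers the median difference was −0.92, with 3 higher and 5 lower, and this median ran from −2.08 to 0.80 as single libraries were left out. GRIA2, an AMPA receptor subunit, had the smallest p, with 52.7, 159, 2.91 and 2.46 TPM in the younger class and 4.65 TPM in the 10-yr-old male alone among the older libraries (−3.58, adjusted p = 0.427 by limma). NRGN, a calmodulin-binding protein of dendritic spines, had 749, 324, 313 and 238 TPM against 136, 318, 14.1 and 733 TPM, with overlap. SLC17A7, the vesicular glutamate transporter VGLUT1, had 1.20 to 36.4 TPM and 0 to 181 TPM. Of GABAergic markers, 2 of the 12 listed were tested, TAC1 as above and the neuropeptide SST, with 319, 413, 220 and 738 TPM against 195, 29.3, 0 and 1551 TPM. In bulk tissue, fewer cells of a type and less RNA per cell cannot be told apart.

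Lists of the synapse lay near or above the median of all genes. Of 11 genes of the synaptic vesicle and its release, 4 were higher and 7 lower (median −0.49, or 0.05 with 10-yr-old animals alone). SNCB, beta-synuclein of the presynaptic terminal, had 3514, 2135, 2971 and 1978 TPM in the younger and 3647, 7318, 9821 and 2800.4 TPM in the older class, and SYP, the vesicle protein synaptophysin, had 872 to 3354 TPM and 828 to 3124 TPM. SYT1, the calcium sensor of release, was listed in all 4 younger libraries at 123, 59.9, 148 and 6.14 TPM and in the 10-yr-old male alone at 73.8 TPM among the older ones (−4.18, adjusted p = 0.404 by limma). SNAP25, a SNARE of release, had 583, 120.4, 31.3 and 19.2 TPM against 2.48, 74.0, 2.76 and 3.18 TPM (−3.36, adjusted p = 0.464 by limma), with 3 of 4 older libraries below every younger one. SNCB and SNAP25 of this list thus lay on opposite sides of 0.

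Postsynaptic and channel genes had mostly lower values, as had all genes tested. Over all genes, 1538 of 2149 were lower and 246 (11.4%) had an unadjusted p under 0.05. Of 10 tested genes of the postsynapse, 9 were lower (median −1.31, or −0.77 with 10-yr-old animals alone, against −1.28 and −0.20 for all genes). CAMK2G, a subunit of the calcium/calmodulin-dependent kinase of spines, had 100.5, 86.1, 28.8 and 358 TPM in the younger class and 61.3, 1.63, 0 and 0 TPM in the older class (−4.78, adjusted p = 0.289 by limma). Of 7 voltage-gated channel genes 6 were lower and 3 had an unadjusted p under 0.05 (median −1.96, or −2.60 with 10-yr-old animals alone). CACNA1A, the pore of P/Q-type calcium channels, was younger-only, at 13.8, 3.46, 183 and 2.70 TPM (−3.86, adjusted p = 0.365 by limma). CACNB3, a calcium channel beta subunit, had 238, 43.4, 142 and 71.0 TPM against 0, 118, 17.1 and 0 TPM, and CACNG3, which escorts AMPA receptors, had 130.3, 256, 54.5 and 31.2 TPM against 0, 1.63, 0 and 119 TPM. Their adjusted p was 0.427 and 0.380 (limma), and the classes overlapped in both. Receptors of glutamate and GABA had a median of −1.18 over 8 genes, which was 0.51 with 10-yr-old animals alone.

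Medians of genes of axons and of growing neurons depended on the 20-yr-old libraries. The 12 tested genes of neurofilaments and axon transport had a median of −0.63 and the 10 genes of immature neurons and axon growth −0.70, and with 10-yr-old animals alone these were 0.18 and 0.05. MAP2, the microtubule protein of dendrites, had the smallest p of the former list, with 116, 205, 37.6 and 5.65 TPM in the younger and 0, 2.09, 0 and 1.27 TPM in the older class (−4.94 ± 1.44 SE, adjusted p = 0.174 by limma), and its classes did not overlap. MAP1B, a microtubule protein of growing axons, had 330.0, 306, 1130.1 and 1324 TPM in the younger, 169 and 402 TPM in the 10-yr-old and 0 in both 20-yr-old libraries. NNAT, a proteolipid of developing neurons, had 180.5, 351, 423 and 325 TPM, then 142 and 208 TPM at 10 yr and 0 in both libraries at 20 yr. MAP1B and NNAT had adjusted p of 0.387 and 0.409 (limma).

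Glial genes were not uniformly lower. The 8 tested astrocyte markers had a median of −0.27, which was 1.16 with 10-yr-old animals alone, and their summed level was 7267, 14361, 8509 and 8412 TPM in the younger and 14838, 13494, 10035 and 8723 TPM in the older libraries, most of it CLU. GFAP, the intermediate filament of astrocytes, had 0, 252, 96.2 and 172 TPM against 176, 331, 13.3 and 1.91 TPM. ALDOC, the brain aldolase of astrocytes, had 126, 164, 175 and 246 TPM against 141, 0, 0 and 41.7 TPM (−4.30, adjusted p = 0.395 by limma). Of microglial markers 3 were tested and all 3 were lower, beside 1538 of the 2149 genes tested. The sum over the 5 listed markers ran from 194 to 405 TPM in the younger and from 0 to 1044 TPM in the older class. This sum was highest in the 20-yr-old female and 0 in the 20-yr-old male. CD68, a lysosomal protein, had 54.8, 176, 34.9 and 156 TPM against 274 TPM in the 10-yr-old male alone. C1QC, a chain of complement C1q, had 139, 211, 159.9 and 131 TPM against 373, 15.8, 0 and 0 TPM. SLC2A1, the glucose transporter of the blood-brain barrier, had 31.3 to 166 TPM in the younger libraries, 173 and 228 TPM at 10 yr and 0 in both 20-yr-old libraries. Of the 12 endothelial and pericyte markers in the table, 2 to 3 were listed per younger library, 1 in each 10-yr-old and 0 in each 20-yr-old library. Of the 1061 genes listed in all 4 younger libraries, 326 were likewise in neither 20-yr-old library.

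The myelin list had higher summed levels in most older libraries. MBP, myelin basic protein, had 436, 1321, 2870 and 2545 TPM in the younger and 3966, 2720.1, 7546 and 4243 TPM in the older class, so that 1 older library, the 10-yr-old male, lay within the younger range (1.59 ± 1.27 SE, adjusted p = 0.703 by limma). Its lowest value was in the 1-yr-old female and its highest in the 20-yr-old female. The summed myelin list, with 3 to 8 members listed per library, ran from 654 to 3575 TPM in the younger and from 3257 to 8280 TPM in the older class. The median over the 5 tested members was 0.02, and MBP carried most of the sum. The values of MBP in the other neocortex did not separate from those in PC (difference of differences 0.53, adjusted p = 0.974 by limma). The 6 strongest positions of MBP all lay at 97.7% to 98.8% of the length of the gene.

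Nuclear-encoded genes of the respiratory chain stood higher than most lists. Of 30 tested, 17 were higher and 13 lower, 2 of the former and 1 of the latter with an unadjusted p under 0.05, and the median was 0.14, against 28.4% higher and a median of −1.28 over all genes. The median ran from −0.72 to 0.57 as single libraries were left out and was 0.11 with 10-yr-old animals alone. Of the 9 members listed in all 8 libraries, all 9 were higher in the older class (NDUFV3, SDHB, COX4I1, ATP5PF, NDUFA6, NDUFB9, ATP5MC2, ATP5IF1 and NDUFB1), with a median of 1.40, against 157 of 318 and −0.02 for all genes listed in all 8. With 10-yr-old animals alone, 8 of the 9 were higher and the median was 1.05. These 9 genes were set apart after the values were seen. The whole respiratory chain list, not these 9 alone, summed to 6808, 4435, 7453 and 10686 TPM in the younger and 12621, 8372, 20603 and 25618 TPM in the older libraries. Of the whole list, 25 to 32 members were listed in the younger, 29 to 31 in the 10-yr-old and 12 to 25 in the 20-yr-old libraries. Fewer members thus carried a larger sum at 20 yr than at 10 yr. NDUFB9 and ATP5IF1, with the values given above, made up much of the sum at 20 yr, so it does not describe the list as a whole.

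Single respiratory genes varied widely in size. NDUFV3, an accessory subunit of complex I, had 141, 362, 598 and 357 TPM in the younger and 499, 898, 1763 and 1177 TPM in the older class (1.60, adjusted p = 0.697 by limma). NDUFA6, another accessory subunit, had 1010.1, 66.1, 1545 and 2543 TPM against 1551, 1693, 2548 and 1915 TPM. COX4I1, a subunit of cytochrome c oxidase, had 113, 260.0, 13.3 and 1052 TPM against 388, 403, 989 and 722 TPM. In the other direction, NDUFA9, a subunit of complex I, had 50.2, 115, 109 and 155 TPM in the younger class and 52.4 TPM in the 10-yr-old female alone (−5.22 ± 1.59 SE, adjusted p = 0.195 by limma). The genes of the mitochondrial genome had mostly lower values, as had all genes tested. Of 20 tested, 16 were lower, 5 with an unadjusted p under 0.05, and their median was −1.71, or −1.68 with 10-yr-old animals alone. Over all genes, 1538 of 2149 were lower and 246 (11.4%) had an unadjusted p under 0.05, with medians of −1.28 and −0.20.

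Redox genes lay near 0 and glycolytic genes near the median of all genes. Of 11 redox genes 6 were higher (median 0.05). PRDX2, the neuronal peroxiredoxin, had 945, 0, 1749 and 1427 TPM in the younger and 2463, 1660.2, 2836 and 2627 TPM in the older class, and SOD1, the copper-zinc superoxide dismutase, had 28.3, 130.3, 52.1 and 29.5 TPM against 112, 279.9, 127 and 997 TPM. The classes overlapped in both, with adjusted p of 0.632 and 0.566 (limma). MSRB1, a methionine sulfoxide reductase, had 37.3, 16.8, 2.42 and 19.7 TPM and then 2.76 TPM in the 10-yr-old female alone. Of 9 glycolytic genes 6 were lower (median −1.38, or −0.12 with 10-yr-old animals alone), including GPI, glucose-6-phosphate isomerase, with 16.9, 100.2, 148 and 290 TPM against 147 TPM in the 10-yr-old male alone.

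**Figure D4:**
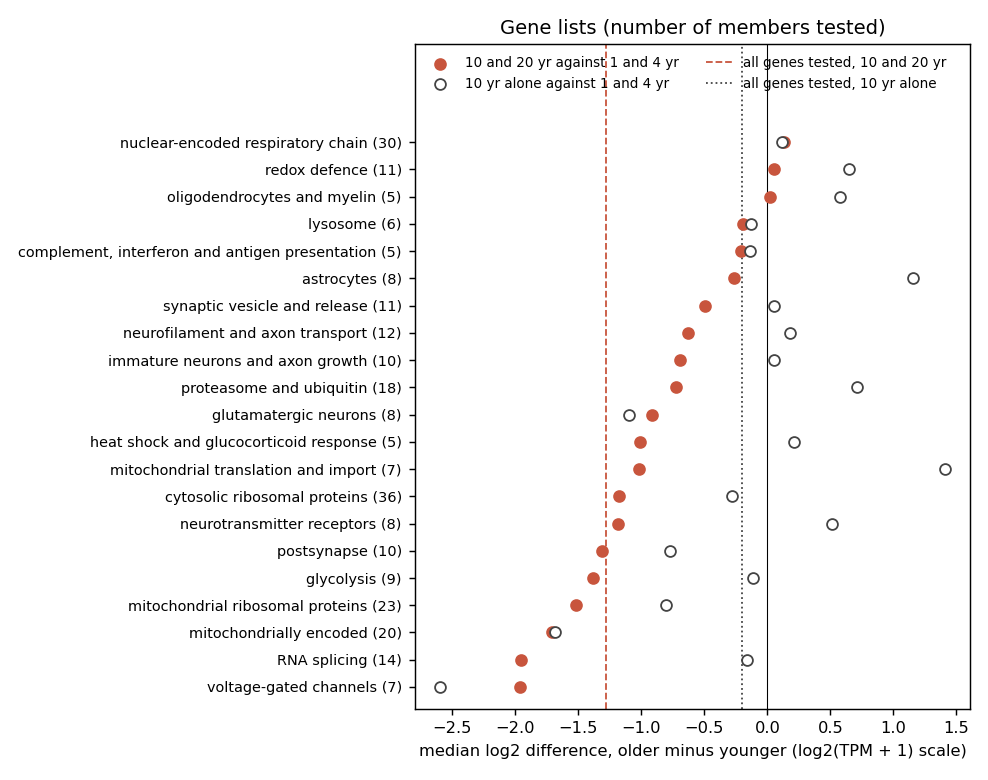
Median log2 difference (older minus younger) over the tested members of each gene list with at least 5 tested members, for both older ages (filled) and for 10-yr-old animals alone (open), with vertical lines at the medians of all genes tested (−1.28 and −0.20). The respiratory chain, redox and myelin lists lie highest for both older ages and RNA splicing and voltage-gated channels lowest, and most open points lie to the right of the filled ones.

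Lists of protein and RNA turnover are read against 28.4% higher and a median of −1.28 over all genes. Of 36 tested cytosolic ribosomal proteins 25 were lower, 4 with an unadjusted p under 0.05 (median −1.18). Ribosomal protein genes have many processed copies in primate genomes, and uniquely mapped tags were counted, so their levels are uncertain. RPL17 is described above, and RPS7, of the small subunit, had 0, 79.4, 141 and 68.8 TPM in the younger class and 2.21 TPM in the 10-yr-old female alone. Of 23 mitochondrial ribosomal proteins 19 were lower (median −1.52), and of 18 genes of the proteasome and ubiquitin 13 were lower (median −0.73, or 0.71 with 10-yr-old animals alone). The 14 splicing genes had 12 lower (median −1.95, or −0.16 with 10-yr-old animals alone), among them SNRPA, a U1 snRNP protein, with 27.1, 66.3, 123 and 212 TPM in the younger class and 184 TPM in the 10-yr-old male alone. DNAJB2, a neuronal co-chaperone, had 173, 152, 12.4 and 16.7 TPM and then 1.86 TPM in the 10-yr-old male alone (−5.27, adjusted p = 0.126 by limma).

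The direction of the median over 24 lists differed between settings. It was below 0 in 19 of 24 lists with both older ages, in 8 with quantile normalization, in 10 with the number of positions as a term and in 12 with 10-yr-old animals alone, but in 18 and 20 lists with only the 20-yr-old female or only the 20-yr-old male left out. With values rescaled to the listed total it was below 0 in 21 lists. The respiratory chain median was above 0 and that of the mitochondrially encoded genes below 0 with both older ages and with 10-yr-old animals alone.

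**Figure D5:**
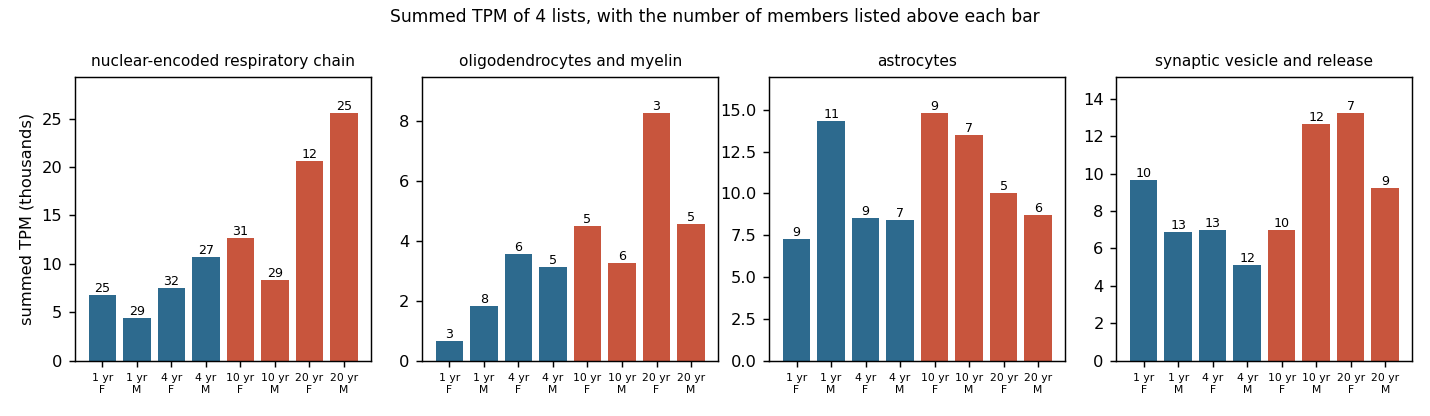
Summed TPM of 4 lists in each PC library, with age and sex on the horizontal axis and the number of members listed above each bar. Respiratory chain and myelin sums are highest in 20-yr-old libraries (25618 TPM in the male and 8280 TPM in the female), while astrocyte and synaptic vesicle sums overlap between classes.

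Adjacent ages were compared to place the difference in time. None of the 3 steps had a gene past an adjusted p of 0.05 by limma, with 2 libraries per age. An unadjusted p under 0.05 was reached by 101 genes from 1 to 4 yr (4.7%, 31 higher and 70 lower), by 161 from 4 to 10 yr (7.49%, 65 higher and 96 lower) and by 331 from 10 to 20 yr (15.4%, 28 higher and 303 lower). The median difference was −0.20, −0.02 and −2.02 for the 3 steps. The last step thus had the most such genes and the strongest tilt, and it is the step where the listing dropped. From 1 to 4 yr, NDUFS4, a subunit of complex I, was at 0 in both 1-yr-old libraries and at 1455 and 1183 TPM at 4 yr (adjusted p = 0.876 by limma), and STMN2, a microtubule regulator of growing axons, was at 93.0 and 72.5 TPM at 1 yr and at 0 in both libraries at 4 yr (adjusted p = 0.965 by limma). PFDN5, a prefoldin subunit, was likewise at 0 at 1 yr and at 181 and 259 TPM at 4 yr.

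From 10 to 20 yr the smallest p fell on strong genes that no 20-yr-old library listed. DDX39B, an RNA helicase of splicing and export, had 578 and 385 TPM at 10 yr. EPB41L3, a membrane skeleton protein of axons, had 273 and 295 TPM and YWHAE, the 14-3-3 epsilon adaptor, had 249 and 291 TPM. The adjusted p of these 3 genes was 0.142 (limma), the smallest of the step. All 4 younger libraries listed each of them, at 113 to 347 TPM for DDX39B, 85.8 to 165 TPM for EPB41L3 and 264 to 634 TPM for YWHAE.

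Sexes were compared for the size of the age difference. No gene passed the interaction of age class and sex (limma, smallest adjusted p 0.997), with 72 genes (3.35%) at an unadjusted p under 0.05. SRP9, a subunit of the signal recognition particle, had the smallest p, with an interaction of 11.59 ± 2.74 SE, with 41.5 and 141 TPM in the younger females and 6.63 and 0 TPM in the older females, against 0 and 0 TPM in the younger males and 136 and 86.3 TPM in the older males (adjusted p = 0.997 by limma). With 2 libraries per cell of this design, no difference between the sexes was detectable for a single gene after adjustment.

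The age difference in PC was set against that in the other neocortex. For each age and sex, log2(TPM + 1) in PC was taken minus the mean of PFC, PCC, TC and OC of the same animals. No gene passed (limma, smallest adjusted p 0.300), and 151 (7.03%) had an unadjusted p under 0.05, 19 higher and 132 lower, so that no single gene was shown to be particular to PC. With 10-yr-old animals alone as the older class, a choice made after the data were seen, 168 genes had an unadjusted p under 0.05, 89 higher and 79 lower, none was called by limma, and the median turned from −0.66 to 0.50. The smallest p were those of SEMA3B (difference 8.20 ± 1.69 SE) and EDF1, CALCOCO1, MGAT5B, PQBP1 and ATP9A, all at an adjusted p of 0.300. EDF1, a coactivator, had 2046, 1.86, 644 and 816 TPM in the younger PC libraries and 3.31 TPM in the 10-yr-old female alone among the older ones, while PFC and PCC listed it in all 8 libraries each. PQBP1, a polyglutamine-binding splicing protein, had 108, 72.2, 19.9 and 49.6 TPM and was at 0 in the older PC libraries, and it was listed in 23 of 28 older libraries of the other regions.

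Listing in PC also did not separate from the other neocortex. The log2 number of genes listed fell short in older PC by 0.88 of a log2 unit against younger PC, and relative to the other neocortex the difference was −0.43 (exact permutation p = 0.343). The median difference over the 2149 genes was −1.28 in PC, −0.87 in PFC, −0.86 in TC, −0.62 in PCC and 0.31 in OC. Other regions also had few genes in single libraries, for example 707 in a 20-yr-old PCC library, so short lists were not confined to PC.

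Positions within genes were tested next, to ask whether the start site itself moved with age. Of 957 positions with at least 1 TPM in 4 or more PC libraries, 1 (0.104%) was called and 116 (12.1%) had an unadjusted p under 0.05, 9 higher and 107 lower. The called position was 87015289 on the plus strand of chromosome 20, 43 nt downstream of the annotated start of ENSMMUG00000012433 (87015246 to 87019798), a gene with no symbol in the name tables. It had 171, 383, 414 and 551 TPM in the younger libraries and was at 0 in all older ones (log2 difference −8.45 ± 1.29 SE, limma, adjusted p = 0.0443), and it passed the filter of 4 libraries through the younger class alone. The gene itself was not lost. The older libraries listed it at neighbouring nucleotides, at 87015263 with 503 TPM in the 10-yr-old female, 87015278 with 399 TPM in the 10-yr-old male, 87015259 with 2116 TPM in the 20-yr-old female and 87015275 with 662 TPM in the 20-yr-old male, and its summed difference was 1.15 (adjusted p = 0.771 by limma). When positions under 20 nt apart were joined, 0 of 1871 were called by limma and 206 had an unadjusted p under 0.05.

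The same pattern of shifting nucleotides ran through strong genes. NOL7, a nucleolar protein, had 137, 268, 128 and 180 TPM at 13582788 in the younger class and 0 in the older class (adjusted p = 0.0606 by limma), while the 10-yr-old female had 336 TPM 1 nt downstream. In CLU the main position lay 150, 153 or 156 nt from the start, depending on the library, and in HYPK the 20-yr-old female had its main position 9 nt from that of the other 7 libraries. Of the 318 genes listed in all 8 libraries, 28 (8.81%) had the same strongest nucleotide in all 8, 63 had it within 20 nt and 121 within 100 nt, and in 0 genes did the strongest nucleotide split by age class. Positions within 500 nt of the start were higher in the older class in 33.9% of 448 cases and positions elsewhere in 25.9% of 509, with medians of −1.06 and −1.45.

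Use of positions within a gene was tested for 153 genes with at least 2 tested positions. No gene passed (limma diffSplice, smallest adjusted p 0.365), and 11 (7.19%) had an unadjusted p under 0.05. Of these, ENSMMUG00000010027 on the minus strand of chromosome 10 had 0 TPM in all younger libraries and 199.6, 126, 32.6 and 28.4 TPM in the older ones at its annotated start, 36511109, while a position 109 nt downstream was listed in all 8 libraries, at 173, 591, 665 and 305 TPM and then 938, 347, 705 and 454 TPM. The position at the annotated start passed the filter of 4 libraries through the older class alone, which bears on the p of this gene. This gene was the only one called, of 344, when positions under 20 nt apart were joined (limma diffSplice, adjusted p = 0.0110), and its summed level did not differ beyond the spread (−0.01 ± 1.20 SE). CAMK1, a calcium/calmodulin-dependent kinase, had a similar layout: at its annotated start it had 0, 0, 1.94 and 0 TPM in the younger and 17.1, 168, 13.8 and 149 TPM in the older class (position use, unadjusted p = 0.0175, adjusted p = 0.432 by limma diffSplice). The annotated start of CAMK1 likewise needed the older class to pass the filter. Its summed level overlapped between the classes, at 10.8 to 136 TPM and 70.7 to 170.3 TPM.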

How the data were processed

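CAGE libraries were sequenced on a NextSeq 500. The authors mapped unique reads to MMUL 1.0 with TopHat2 (version not given in the sources used here) and clustered start sites under 20 nt apart within a sample. The deposited table gives 1 position per cluster in RPM, called TPM, which the authors scaled to the library total without correction for gene length. Positions under 1 TPM are not listed, so a value listed at 0 may hold up to 3 or 4 tags.

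TPM was summed per gene. Differences of log2(TPM + 1) were tested in limma 3.58.1 (R 4.3.3) with no covariate, as the study treats both sexes of an age as replicates, adjusted after Benjamini and Hochberg over all features tested, and called at an adjusted p under 0.05. Position use within genes was tested with diffSplice of limma. Library measures were compared by two-sided exact permutation over 70 arrangements (NumPy 2.4.6). Differences to other neocortex were paired by age and sex, since all regions came from the same animals. P-values rest on the spread between these libraries, which limma moderates over all features tested. Depth was read from the steps between low values, of which 100% were whole multiples within 0.1 tag. Symbols matched 10069 of 13269 identifiers.

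Members and lists were chosen with earlier results of these data known. Genes named are called genes, the 10 smallest p in each direction, up to 3 members of a list by p, the most abundant genes and genes listed in 1 class, plus some list members chosen after their values were seen. Some items these rules name are not reported here. The limma models were run on simulated, normally distributed values with added shifts. These values lacked the cut at 1 TPM and the many zeros of the data, so they do not show how the fits behave there.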

Additional observations from a re-analysis of the deposited data

Results flagged for a closer look

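In groups of 4 libraries, the gap of a library to the nearest other one was divided by the range of the group. A library was singled out when this ratio was above Dixon's critical value for 4 samples. With normal values chance alone singles out about 1 in 20 groups, a rate that does not hold for values cut at 1 TPM with many zeros. Of the values in the report 21 met the rule. The number of groups examined is not given, so 21 cannot be read as more or fewer than chance gives. For the listed TPM of the older class the ratio was 0.863, with both 20-yr-old libraries and the 10-yr-old female above the 10-yr-old male at 522581 TPM. The share of TPM in the 20 highest genes had a ratio of 0.884 in the younger class. For single genes on the log2(TPM + 1) scale the ratio was 0.855 for MGAT5B in the younger class (the 4-yr-old female at 127 TPM), 0.94 for SNAP25 in the older class (the 10-yr-old male at 74.0 TPM), 0.857 for RPS7 in the younger class and 0.918 for PRDX2 in the younger class, the last 2 with the 1-yr-old female and the 1-yr-old male at 0.

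In the other 15 cases the ratio was 1.0, since 1 library listed the gene and the other 3 of its class did not. In the older class these were NICN1, CCDC149, PSMA7, DNAJB2, NDUFA9, SYT1, GRIA2, CD68, GPI, RPS7, MSRB1, EDF1 and SNRPA, and in the younger class PSME1 and PICK1. The single older library was the 10-yr-old female for CCDC149, NDUFA9, RPS7, MSRB1 and EDF1, the 20-yr-old male for NICN1 and the 10-yr-old male for the other 7, and never the 20-yr-old female.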

How the results depend on the processing

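The number of genes called between the age classes was 1 and depended on the processing. It was 32 with a pseudocount of 0.25 TPM and 26 with no filter, 27 and 20 of them listed in all 4 younger and no older library. It was 0 with at least 1 TPM in 7 libraries, with sex, the log2 number of positions or 4 ages as terms, with a slope on log2 age, with positions within 500 nt of the start, with 4-yr-old animals alone as the younger class and, both chosen after seeing the data, with 10-yr-old animals alone as the older class or genes listed in all 8 libraries. Leaving out 1 library gave 0 to 48 genes, with 29 without the 10-yr-old female and 48 without the 10-yr-old male, all lower. For positions the number was 1, and 0 with positions under 20 nt apart joined or with 10-yr-old animals alone (chosen after seeing the data), and 0 to 18 with 1 library left out (18 without the 10-yr-old female, 17 without the 10-yr-old male). Position use gave 0 genes, 1 with joined positions and 1 with 10-yr-old animals alone (chosen after seeing the data), and 0 to 0 with 1 library left out. The cause of these shifts was not tested.

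The difference to the other neocortex, paired by age and sex, gave 0 calls and 151 genes with an unadjusted p under 0.05 by limma. With no replicate block it gave 0 calls and 169 such genes, and it stayed at 0 to 0 calls with 1 library left out, so the pairing changed no call.

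Older minus younger library measures with 1 library left out ran from −1541 to −951 genes, −3075 to −1715 positions, 42635 to 63143 listed TPM, −9.71 to −5.22 percentage points of genes with more than 1 position, 0.761 to 2.98 points of TPM near the start, −0.254 to 0.708 points in the gene end, 1.03 to 3.45 points in the top 20 genes and −0.578 to 1.21 points mitochondrial. The sign turned for the gene end without the 10-yr-old female (−0.254) or the 20-yr-old female (−0.0119), for the mitochondrial share without the 1-yr-old male (−0.0372), the 4-yr-old female (−0.578), the 10-yr-old male (−0.140) or the 20-yr-old male (−0.533), and for the share near the start with 10-yr-old animals alone (−0.590). The planned count tests on whole tags with 2 other tools were not run, because positions under 1 TPM are not listed and the values are normalized. There was 1 library per age and sex, and limits from depth and from the design were not told apart.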
